A study of Homo sapiens with 4 samples.

Results

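Transcript levels of 8 transcription factor genes, ALX1, BACH1, BACH2, BCL6, BCL11A, BCL11B, BNC1 and BNC2, were followed across 4 RNA libraries of A375, a human melanoma cell line. The 8 genes were taken by name from a table of 2864 genes, by a rule that uses no measured value, though with earlier results of these data known. The libraries were untreated parental cells (A375P), a strain kept in gradually raised vemurafenib until it was resistant (A375R), A375 cells in 1‰ of the solvent DMSO for 48 h (A375+DMSO) and A375 cells in 2 μM vemurafenib for 48 h (A375+VEM). Vemurafenib inhibits the BRAF kinase, and the study is on melanoma with mutated BRAF. Every library carries the same batch label and is labelled wild type, which is not read here as a statement about BRAF. A375R is a strain selected over months in culture, so the drug and the passage of the cells cannot be told apart in it. Each condition has 1 library, so the differences below are without replicates and are described without p-values. Levels are given as reads and as TPM, the reads per unit of gene length relative to the whole library, and their 95% intervals cover counting error only.

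BACH1 and BACH2 are bZIP proteins with a BTB domain that bind DNA as partners of small MAF proteins and are released from it by heme. BACH1 holds antioxidant and heme breakdown genes down in many tissues, and BACH2 is known from B and T lymphocytes. BCL6 is a BTB zinc finger repressor, best known from germinal centre B cells, that works through corepressors such as BCOR. BCL11A and BCL11B are zinc finger proteins found with the BAF chromatin remodelling complex. BCL11A silences fetal globin genes in erythroid cells, and BCL11B is needed for T cell development. BNC1 and BNC2 are basonuclins, zinc finger proteins of epithelial and mesenchymal cells. BNC1 is a gene of basal keratinocytes, and variation near BNC2 is associated with skin pigmentation. ALX1 is a paired-class homeobox factor of the embryonic craniofacial mesenchyme.

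The start regions of BCL6 and BACH1 are shown first, since BCL6 is the member whose level differed most and BACH1 the one with the most reads over the 4 libraries. They are RefSeq sequences of build GRCh38.p14, 5′ to 3′ on the strand of the gene, and each is the 250 bases before an annotated start. Capitals mark a match to TTCNNNGAA, the core that STAT factors and BCL6 share, or to TGANTCA, the AP-1 site that also lies inside the longer BACH and MAF element. BCL6 has an upstream and a downstream annotated start, and the start of BACH1 shown is the one with a match.
BCL6 upstream start, chr3:187745469-187745718, minus strand: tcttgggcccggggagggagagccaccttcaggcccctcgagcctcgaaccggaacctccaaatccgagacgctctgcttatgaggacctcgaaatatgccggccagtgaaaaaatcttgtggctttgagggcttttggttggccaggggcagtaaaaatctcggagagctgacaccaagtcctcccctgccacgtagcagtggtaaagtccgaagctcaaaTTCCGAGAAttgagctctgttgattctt
BCL6 downstream start, chr3:187736502-187736751, minus strand: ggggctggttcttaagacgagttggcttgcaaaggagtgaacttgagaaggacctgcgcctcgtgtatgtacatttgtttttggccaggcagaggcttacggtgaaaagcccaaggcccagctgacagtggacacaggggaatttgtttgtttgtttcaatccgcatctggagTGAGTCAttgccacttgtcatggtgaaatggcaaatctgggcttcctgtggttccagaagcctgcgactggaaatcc
BACH1 start, chr21:29298672-29298921, plus strand: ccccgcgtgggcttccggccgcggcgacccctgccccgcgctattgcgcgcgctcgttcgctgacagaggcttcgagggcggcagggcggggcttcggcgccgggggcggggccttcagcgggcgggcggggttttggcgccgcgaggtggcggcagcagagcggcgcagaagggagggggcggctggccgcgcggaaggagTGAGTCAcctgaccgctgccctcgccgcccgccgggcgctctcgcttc
BACH2 start, chr6:90296844-90297093, minus strand: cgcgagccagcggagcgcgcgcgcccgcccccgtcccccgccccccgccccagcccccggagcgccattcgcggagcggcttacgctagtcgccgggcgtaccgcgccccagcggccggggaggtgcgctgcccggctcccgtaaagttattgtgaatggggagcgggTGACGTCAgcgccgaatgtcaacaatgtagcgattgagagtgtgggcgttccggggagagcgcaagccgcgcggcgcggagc
BACH2, the relative of BACH1, is added because its capitals mark TGACGTCA, the cyclic AMP response element, which is the third motif searched. The search covered both strands of 300 bases around each start, from 250 before to 50 after it, in 15 windows of 7 of the 8 members. ALX1 had no entry. TTCNNNGAA was in 2 of the 15 windows and in 7.66% of all 35116 windows of the reference table. TGANTCA was in 2 of the 15 and in 7.71% of all, and TGACGTCA in 1 of the 15 and in 1.85% of all. The upstream BCL6 window held TTCNNNGAA at 4 places, as TTCCGAGAA from base -28, TTCTTAGAA from base -5 and again from base 11, and TTCTAGGAA from base 37, counted from 1 at the start. No match overlapped a match of another motif. These matches describe letters in the reference and are not measured binding sites, and the counts below are per gene and do not tell the starts apart.

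The counts in the table summed to between 1891215 and 2054277 per library, a part of the sequenced reads that does not measure depth. Of the marker genes used to check the cells, BCAN, a proteoglycan gene listed as melanocytic, was at 15.4 to 34.1 TPM. BIRC7 and ABCB5, pigment cell genes of the same list, were at no more than 1.66 and 0.10 TPM. The 4 B lymphocyte genes BANK1, BLK, BLNK and BTK summed to between 0.11 TPM in A375P and 1.01 TPM in A375+VEM. The T lymphocyte genes BATF and BTLA summed to at most 0.14 TPM and the erythroid genes AHSP, ALAS2 and ANK1 to at most 0.87 TPM, with AHSP at 0 reads in all 4 libraries. The 3 keratinocyte genes ALOX12B, AQP3 and ASPRV1 summed to 6.80 TPM in A375P, 9.91 in A375R, and 10.7 and 35.9 TPM in A375+DMSO and A375+VEM, respectively. The 3 endothelial genes ANGPT2, APLNR and AQP1 summed to between 1.21 and 5.64 TPM, with the highest sum in A375+VEM.

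BCL6 differed most among the 8 genes. Its gene spans 187439165 to 187463513 on the minus strand of chromosome 3 (hg19, the build named in the submitters' processing notes). Its level was 4.52 TPM in A375P (154 reads, exact Poisson 95% interval 3.83 to 5.29), 11.7 in A375R (361 reads), 13.5 in A375+DMSO (429 reads) and 40.8 in A375+VEM (1288 reads, 38.6 to 43.1). A375+VEM was the high library and A375P the low library, with A375R and A375+DMSO between them. BCL6 was 2.60-fold above A375P in A375R (exact Clopper-Pearson 95% interval on the reads, 2.14 to 3.15) and, under acute vemurafenib, 3.02-fold above A375+DMSO (2.71 to 3.38). A375+DMSO was itself 2.99-fold above A375P (2.48 to 3.61), so the difference between the libraries without vemurafenib was as large as that of either pair of the study. Against A375+DMSO, A375R was at a ratio of 0.87 (0.75 to 1.00), whose interval holds 1. From A375P to A375+VEM the difference was 9.03-fold (7.63 to 10.7). In a bulk library, more cells with BCL6 RNA and more BCL6 RNA per cell cannot be told apart. The 4 B lymphocyte genes above summed to at most 1.01 TPM in these libraries. AQP3, a water channel of keratinocytes, followed the order of BCL6, with 1.93 TPM in A375P, 7.53 in A375R, and 8.02 and 31.0 TPM in A375+DMSO and A375+VEM, respectively. The other keratinocyte genes did not, with ALOX12B at 2.94, 1.91, 1.90 and 1.31 TPM and ASPRV1 at 1.93, 0.47, 0.80 and 3.59 TPM in the same libraries, and the part of these genes in the result was not tested.

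**Figure D1:**
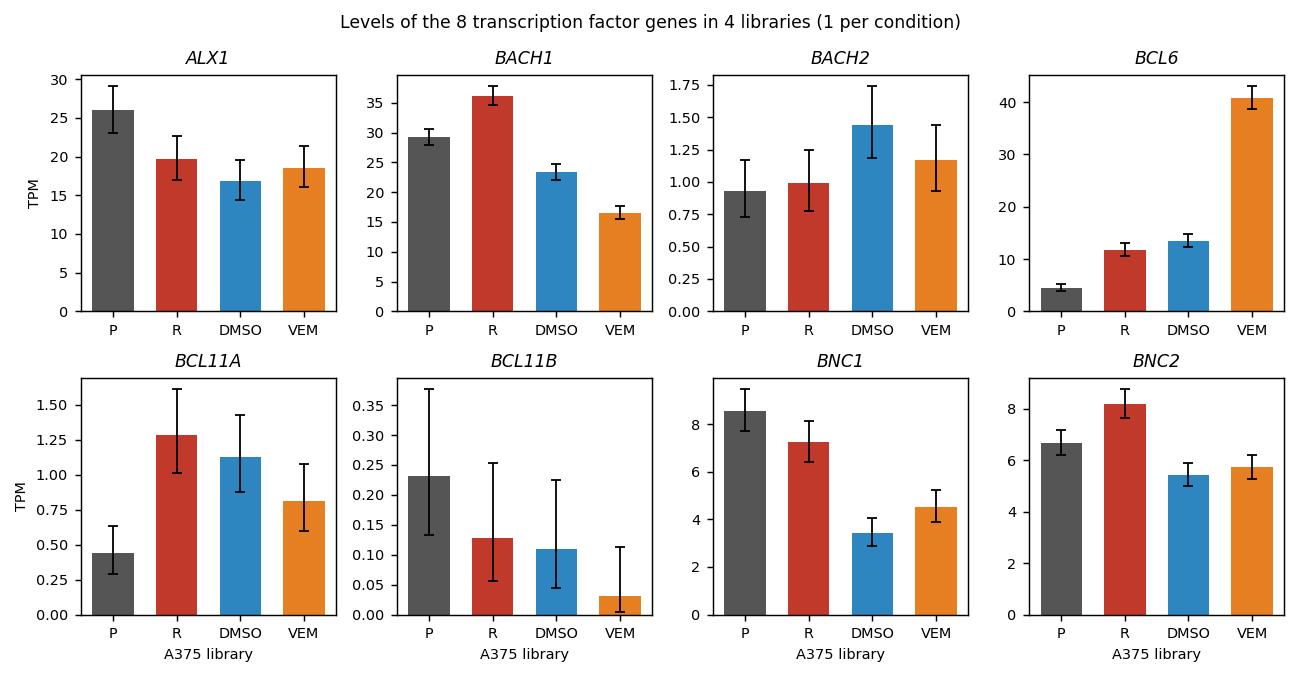
TPM (vertical axes, each from 0 and with its own scale) of the 8 genes in A375P (P), A375R (R), A375+DMSO (DMSO) and A375+VEM (VEM). Bars are single libraries and error bars are exact Poisson 95% intervals of the reads. BCL6 climbs from 4.52 TPM in A375P to 40.8 in A375+VEM, while BACH1 is highest in A375R at 36.2 TPM and lowest in A375+VEM at 16.6.

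BACH1 was the member with the most reads in every library but A375+VEM, where BCL6 had more. Its gene spans 30671116 to 30734217 on the plus strand of chromosome 21. Its level was 29.2 TPM in A375P (1720 reads), 36.2 in A375R (1925 reads), 23.4 in A375+DMSO (1284 reads) and 16.6 in A375+VEM (904 reads). All neighbours in this order, A375R above A375P above A375+DMSO above A375+VEM, were apart by more than their counting error. BACH1 was 1.24-fold above A375P in A375R (1.16 to 1.32) and at a ratio of 0.71 in A375+VEM to A375+DMSO (0.65 to 0.77), and neither difference reached 1.5-fold. Against A375+DMSO, A375R was 1.55-fold higher (1.44 to 1.66), which is past 1.5-fold though the interval reaches below it. From A375P to A375+VEM the ratio was 0.57 (0.52 to 0.62).

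BACH2 (chromosome 6, 90636247 to 91006627, minus strand) was at 0.93 TPM in A375P (74 reads), 0.99 in A375R (71 reads), 1.44 in A375+DMSO (107 reads) and 1.17 in A375+VEM (86 reads). Ordered by level, A375+DMSO above A375+VEM above A375R above A375P, no neighbours were apart by more than counting error. Farther apart in that order, A375R was at a ratio of 0.69 to A375+DMSO (0.50 to 0.93), and the largest distance, A375+DMSO to A375P, was 1.55-fold (1.14 to 2.11). Per length, BACH1 stood 31.4-fold above BACH2 in A375P (24.9 to 40.2), 36.6-fold in A375R (28.9 to 47.1), 16.2-fold in A375+DMSO (13.3 to 19.9) and 14.2-fold in A375+VEM (11.4 to 17.9). The excess of BACH1 over BACH2 was thus larger in A375P and A375R than in the other 2 libraries, with intervals that do not overlap between these groups of 2.

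BCL11A (chromosome 2, 60678302 to 60780633, minus strand) was a low gene. It was at 0.44 TPM in A375P (28 reads, 0.29 to 0.63), 1.28 in A375R (74 reads, 1.01 to 1.61), 1.13 in A375+DMSO (67 reads, 0.87 to 1.43) and 0.81 in A375+VEM (48 reads, 0.60 to 1.08). A375P was the low library. BCL11A was 2.93-fold above A375P in A375R (1.87 to 4.70) and 2.56-fold higher in A375+DMSO than in A375P (1.63 to 4.14). A375R and A375+DMSO were not apart beyond counting error (1.14-fold, 0.81 to 1.61), nor were A375+VEM and A375+DMSO (ratio 0.72, 0.49 to 1.06).

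BCL11B (chromosome 14, 99635624 to 99738050, minus strand) had 16 reads in A375P, 8 in A375R, and 7 and 2 reads in A375+DMSO and A375+VEM, respectively, and was at most at 0.23 TPM. It stayed under 1 TPM in every library, so it entered no comparison. Its ratio of A375R to A375P was 0.55 with an interval from 0.21 to 1.37, and a difference was not detectable at this depth. The ratio of A375+VEM to A375P was 0.13, from 0.015 to 0.57, on 2 reads against 16. Per length, BCL11A was above BCL11B by 1.89-fold in A375P (0.99 to 3.74), 9.99-fold in A375R (4.82 to 24.0), 10.3-fold in A375+DMSO (4.75 to 26.7) and 25.9-fold in A375+VEM (6.80 to 220.2). Only in A375P did the interval of this ratio hold 1.

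BNC1 separated the 2 libraries of the first pair from the 2 libraries of the second. Its gene spans 83924655 to 83953468 on the minus strand of chromosome 15. Its level was 8.56 TPM in A375P (362 reads), 7.25 in A375R (277 reads), 3.42 in A375+DMSO (135 reads) and 4.52 in A375+VEM (177 reads). Within the pairs the distances were small, a ratio of 0.85 in A375R to A375P (0.72 to 0.99) and a ratio of 1.32 in A375+VEM to A375+DMSO (1.05 to 1.66). Between the libraries without vemurafenib, A375+DMSO was at a ratio of 0.40 to A375P (0.33 to 0.49), and A375R was 2.12-fold above A375+DMSO (1.72 to 2.62). Of the keratinocyte genes, ALOX12B had 2.94 TPM in A375P, 1.91 in A375R, and 1.90 and 1.31 TPM in A375+DMSO and A375+VEM, respectively, and AQP3 was lowest in A375P, where BNC1 was highest. The part of these cells' keratinocyte genes in the BNC1 values was not tested.

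BNC2 (chromosome 9, 16409501 to 16870786, minus strand) varied less. It was at 6.66 TPM in A375P (747 reads), 8.19 in A375R (830 reads), 5.42 in A375+DMSO (568 reads) and 5.72 in A375+VEM (595 reads). The 2 libraries of the acute pair did not differ beyond counting error (ratio 1.05, 0.94 to 1.19). A375R was 1.23-fold above A375P (1.11 to 1.36) and 1.51-fold above A375+DMSO (1.35 to 1.68). Per length, BNC2 was below BNC1 in A375P, at a ratio of 0.78 (0.69 to 0.88), and above it in A375+DMSO at 1.59 (1.31 to 1.93) and in A375+VEM at 1.27 (1.07 to 1.51). In A375R the ratio was 1.13 (0.98 to 1.30), so there the 2 basonuclins were not apart.

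ALX1 (chromosome 12, 85674036 to 85695562, plus strand) was at 26.0 TPM in A375P (288 reads), 19.7 in A375R (197 reads), 16.8 in A375+DMSO (174 reads) and 18.6 in A375+VEM (191 reads). A375P was the high library and apart from A375R, the next in the order of levels. Below it, A375R and A375+VEM were not apart beyond counting error, nor were A375+VEM and A375+DMSO. A375R was at a ratio of 0.76 to A375P (0.63 to 0.91) and A375+DMSO at 0.65 (0.53 to 0.78). A375+VEM and A375+DMSO were at a ratio of 1.11 (0.90 to 1.37). ALX1 stood above 72.5% of the 2258 protein-coding genes of the table in A375P and above 62.6% in A375+DMSO. Its relative ALX4, which also acts in the craniofacial mesenchyme, was at 0.95 to 3.82 TPM.

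Each pair of libraries was then compared across all genes as a ratio of (TPM + 0.1). Genes with at least 1 TPM in 1 of the 2 libraries entered, and 1.5-fold was the threshold. A log2 ratio below is on this scale, which understates the difference of low genes. In A375R against A375P, 6 of the 8 members were compared, and BCL6 and BCL11A were higher, at log2 ratios of 1.36 and 1.36. Of all 1689 genes compared, 44.3% were past 1.5-fold, 26.8% higher and 17.5% lower, and 2 of 6 is near that background. The ratio of BCL6 lay above that of 90.8% of these genes and the ratio of BCL11A above that of 90.9%. BACH1 and BNC2 were at 0.31 and 0.29, BNC1 at -0.24 and ALX1 at -0.40.

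In A375+VEM against A375+DMSO, 7 members were compared and BCL6 alone passed the threshold, with a log2 ratio of 1.59, above 93.1% of 1784 genes. The share of all genes past the threshold was 46.2%, and 26.5% were higher. BACH1 was at -0.49, BCL11A at -0.43, BACH2 at -0.28, BNC2 at 0.08, ALX1 at 0.14 and BNC1 at 0.39. The median of the 7 was 0.08 and that of all genes 0.11. With the median ratio of all genes set to 1, BACH1 was at -0.60 and so past 1.5-fold.

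The 2 libraries without vemurafenib were compared as well. In A375+DMSO against A375P, 4 of 7 members compared were past 1.5-fold, where 45.7% of all 1720 genes were, and 4 of 7 is near that background. BCL6 at 1.56 and BCL11A at 1.19 were higher, against 26.8% of all genes, and BNC1 at -1.30 and ALX1 at -0.62 were lower, against 18.9%. BNC1 lay below all but 5.58% of the genes compared. The call of ALX1 was lost where its whole interval had to be past 1.5-fold, and that of BCL11A with a pseudocount of 1, at 0.56, and where at least 5 TPM was asked. BACH2, at 0.58, came past the threshold with a pseudocount of 0.01, at 0.63. This comparison shares A375P with the first and A375+DMSO with the second.

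With A375+DMSO in place of A375P beside A375R, the members past the threshold were others. BNC1 at 1.06, BACH1 at 0.63 and BNC2 at 0.59 were higher in A375R, 3 of 7 compared, where 20.5% of all 1702 genes were past 1.5-fold and 10.5% were higher. BCL6 was at -0.20 and BCL11A at 0.18. BACH1 and BNC2 were just past the threshold, and only BNC1 remained where the whole interval had to be past it. BNC2 was also within it with a pseudocount of 1, at 0.52, and with the median ratio of all genes set to 1, at 0.57. In A375+VEM against A375P, BCL6 was higher at 3.15, and BNC1 at -0.91 and BACH1 at -0.81 were lower, among 6 members compared. There 62.1% of 1782 genes were past 1.5-fold, 36.9% higher and 25.3% lower.

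**Figure D2:**
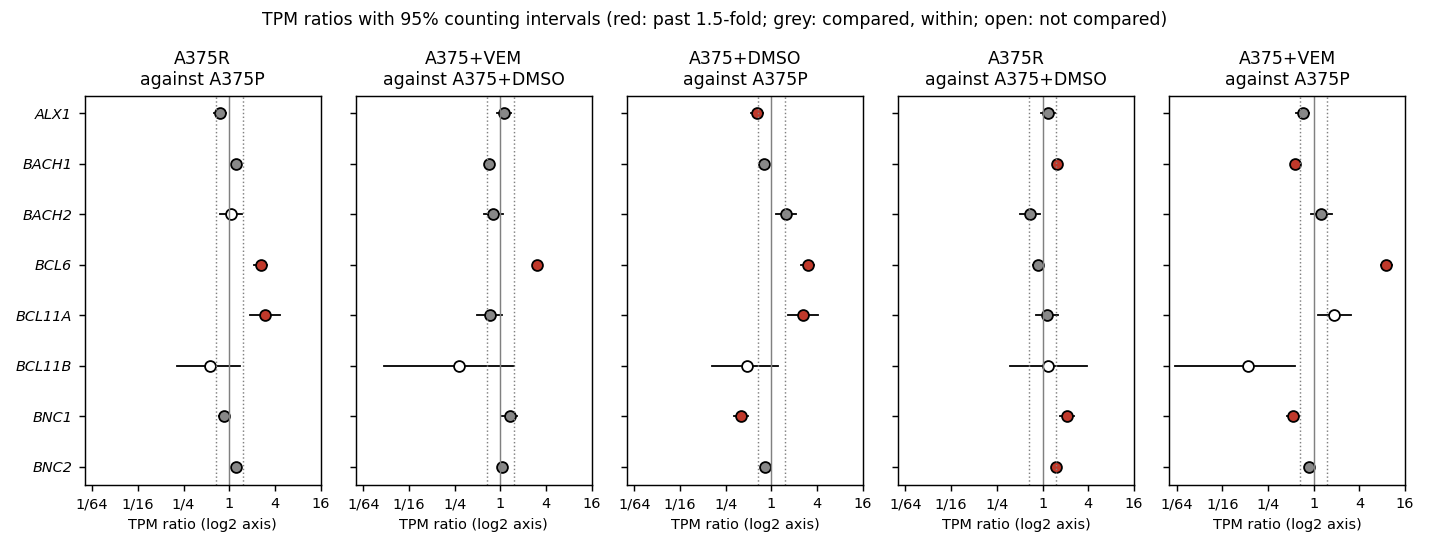
TPM ratios (horizontal axes, log2 scale) of the 8 genes in 5 comparisons, 1 panel each, with exact Clopper-Pearson 95% intervals of the reads as lines. Solid grey lines mark a ratio of 1 and dotted lines 1.5-fold, red points are past 1.5-fold as a ratio of (TPM + 0.1), grey points are within it on that scale and open points had under 1 TPM in both libraries. BACH2 in A375+DMSO against A375P is grey at a TPM ratio of 1.55, since its log2 ratio of (TPM + 0.1) is 0.58. BCL6 is red in 4 panels and at 0.87 in A375R against A375+DMSO.

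**Figure D3:**
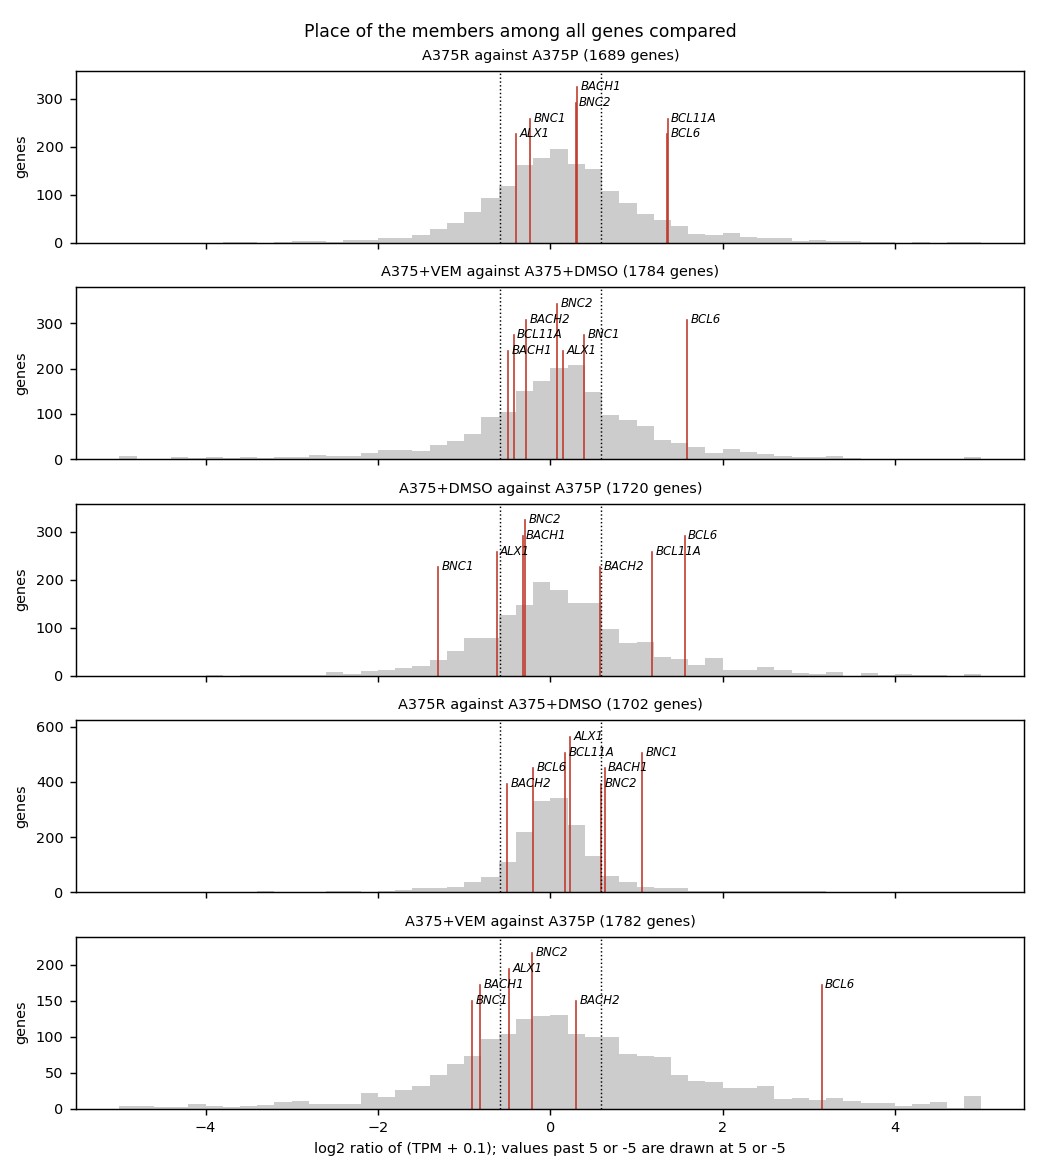
Number of genes (vertical axis) by log2 ratio of (TPM + 0.1) (horizontal axis) for all genes compared in each of the 5 comparisons, with red lines at the members compared and dotted lines at 1.5-fold. BCL6 lies above 93.1% of genes in A375+VEM against A375+DMSO, and BNC1 lies above 5.58% in A375+DMSO against A375P.

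The genes whose profile over the 4 libraries was nearest to each member were sought among 1380 protein-coding genes with at least 5 TPM in 1 library, by the Euclidean distance of log2(TPM + 0.1) centred on each gene's mean. Such distances over 4 libraries are a description. ARSA, which encodes the lysosomal arylsulfatase A, was nearest to BCL6 (distance 0.26), with 3.92 TPM in A375P, 8.02 in A375R, and 9.88 and 32.9 TPM in A375+DMSO and A375+VEM, respectively. B4GALNT3, a glycosyltransferase, was next at 0.27. BACH1 was nearest to ADK, adenosine kinase (0.12), at 33.7, 40.6, 27.1 and 20.8 TPM in the same order, and to ABTB2 (0.13). The nearest profile to ALX1 was that of ARID4B (0.043), followed by BTRC (0.052). BNC1 was nearest to BCAN (0.20), the proteoglycan gene above, with 34.1, 27.6, 15.4 and 16.9 TPM, and to ARFGEF3 (0.23). For BNC2 they were ASAP1 (0.12) and ATG5 (0.12), for BACH2 ARL3 (0.10) and ALDOA (0.13), and for BCL11A ANXA2R (0.066) and ADNP2 (0.13).

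Of 7 genes linked to BCL6, which are the corepressors BCOR and BCORL1, the relative BCL6B, and ATR, BCL2, BCL2L1 and ARNTL, 6 were compared in both pairs. In A375R against A375P, 1 was higher and 1 lower, where 44.3% of all genes were past 1.5-fold, and in A375+VEM against A375+DMSO, 1 was higher and 2 were lower, where 46.2% were. BCL2, an antiapoptotic gene that BCL6 is known to repress in lymphocytes, was at 8.88 TPM in A375P, 4.35 in A375R, and 3.57 and 0.51 TPM in A375+DMSO and A375+VEM, respectively. That is the reverse of the order of BCL6 in the 4 libraries. For both genes A375R and A375+DMSO were not apart beyond counting error, with BCL2 at a ratio of 1.22 (1.00 to 1.49). Its ratio was 0.49 in A375R to A375P (0.42 to 0.57) and 0.14 in A375+VEM to A375+DMSO (0.092 to 0.22). Between the libraries without vemurafenib, the BCL2 ratio of A375+DMSO to A375P was 0.40 (0.34 to 0.48). BCL2L1, the gene of the related survival protein BCL-XL, was at 150.8, 143.8, 105.2 and 42.1 TPM, in the same reverse order. In A375+VEM, BCOR was 1.61-fold above A375+DMSO (1.51 to 1.71), and BCORL1 was 2.15-fold above A375P in A375R (1.90 to 2.43). ATR, a DNA damage kinase gene, was at 19.8, 16.7, 13.0 and 13.0 TPM. ARNTL was at 16.7, 12.2, 8.61 and 10.6 TPM and so was lowest in A375+DMSO. A link of any of these genes to BCL6 was not tested. The median log2 ratio of the list was -0.27 in A375R against A375P and -0.04 in A375+VEM against A375+DMSO, beside 0.10 and 0.11 for all genes.

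The BACH factors bind heme, and of 9 genes of heme synthesis, breakdown and transport 8 were compared in both pairs. In A375R against A375P 3 were higher and none lower, beside 26.8% and 17.5% of all genes, and in A375+VEM against A375+DMSO 1 was higher and 3 were lower, beside 26.5% and 19.7%. Such counts of 8 are not far from those shares. ALAS1, the first enzyme of heme synthesis, was at 78.9 TPM in A375P, 140.7 in A375R, and 88.9 and 52.5 TPM in A375+DMSO and A375+VEM, respectively. BLVRA, a biliverdin reductase of heme breakdown, was at 42.2, 75.3, 64.9 and 37.0 TPM. Both were highest in A375R and lowest in A375+VEM, as BACH1 was. Between these ends they differed from BACH1, since both were lower in A375P than in A375+DMSO and BACH1 was higher. A link to BACH1 was not tested. ALAD, the second enzyme of heme synthesis, took another course and was 2.08-fold above A375+DMSO in A375+VEM (1.92 to 2.26). The medians of the list were 0.54 and -0.15. In A375+DMSO against A375P 3 of 8 were also higher and none lower, beside 26.8% and 18.9% of all genes, with a median of 0.39. In A375R against A375+DMSO 1 was higher and 1 lower, beside 10.5% and 9.99%, with a median of 0.10.

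Of 11 antioxidant and export genes, whose control elements BACH1 and NRF2 compete for in other cells, 10 were compared in both pairs. In A375R against A375P 5 were higher and 1 lower, beside 26.8% and 17.5% of all genes, and in A375+VEM against A375+DMSO 6 were higher and 1 lower, beside 26.5% and 19.7%. The median log2 ratios were 0.71 and 0.76, beside 0.10 and 0.11 for all genes. The libraries without vemurafenib differed as well. In A375+DMSO against A375P 5 of 9 compared were higher and 1 lower, beside 26.8% and 18.9% of all genes. The median there was 0.71, as in A375R against A375P. AKR1C3, an aldo-keto reductase, had 1.41 TPM in A375P, 10.2 in A375R, and 8.08 and 25.4 TPM in A375+DMSO and A375+VEM, respectively. AKR1C2 had 0.73, 4.10, 4.30 and 8.91 TPM, and AKR1C1 2.20, 4.03, 4.90 and 7.76 TPM. A375P was the low library for all 3 and A375+VEM, the library with the least BACH1, the high library. In A375R, the library with the most BACH1, all 3 stood above A375P, and AKR1B1 was at its highest there, at 208.0 TPM. A link of these genes to BACH1 was not tested. The 3 AKR1C genes are related copies of similar sequence, so how reads were split among them is uncertain. ABCC3, an export pump, went the other way in the acute pair, at a ratio of 0.20 (0.17 to 0.24), and was 2.62-fold above A375P in A375R (2.36 to 2.90). Against A375+DMSO, 2 of the 10 were higher in A375R and none lower, beside 10.5% and 9.99% of all genes. The median was 0.19.

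Of 13 listed genes of the BAF complex, 11 were in the table and 10 entered the comparisons. In A375R against A375P none was higher and BCL7A was lower, at a ratio of 0.59 (0.47 to 0.75), beside 26.8% and 17.5% of all genes. In A375+VEM against A375+DMSO none was higher and 4 were lower, BCL7A at 0.59, BCL7C at 0.63, ACTB at 0.65 and ARID1A at 0.66, 4 of 10 where 19.7% of all genes were lower. ACTB also encodes the cytoskeletal actin and was at 1491 to 2542 TPM. The list medians were -0.03 and -0.32.

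Among 11 other bZIP factors, 10 were compared in both pairs. In A375R against A375P 1 was higher and 1 lower, beside 26.8% and 17.5% of all genes. In A375+VEM against A375+DMSO none was higher and 2 were lower, beside 26.5% and 19.7%. BATF3 was 2.39-fold above A375P in A375R (1.54 to 3.79) and at a ratio of 0.25 in A375+VEM to A375+DMSO (0.12 to 0.48). ATF4, the factor of the amino acid and stress response, was at 818.5, 603.2, 627.7 and 321.5 TPM in A375P, A375R, A375+DMSO and A375+VEM. ATF5 was lower in A375R than in A375P, at 0.60 (0.51 to 0.71), and BATF3 and ATF4 were the 2 lower genes of the acute pair. Among 10 other homeobox genes, 4 and 5 were compared, and 1 was higher and none lower in A375R against A375P, 1 higher and 1 lower in A375+VEM against A375+DMSO. Beside the same shares of all genes, such counts of 4 and 5 are too small to set apart. ADNP2 was higher in A375R at 2.71 (2.41 to 3.05) and ALX4 was higher in A375+VEM at 2.26 (1.71 to 3.01). BARX1, a homeobox gene of the embryonic jaw and stomach, was at 7.72, 7.23, 26.7 and 9.35 TPM and so was high in A375+DMSO.

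**Figure D4:**
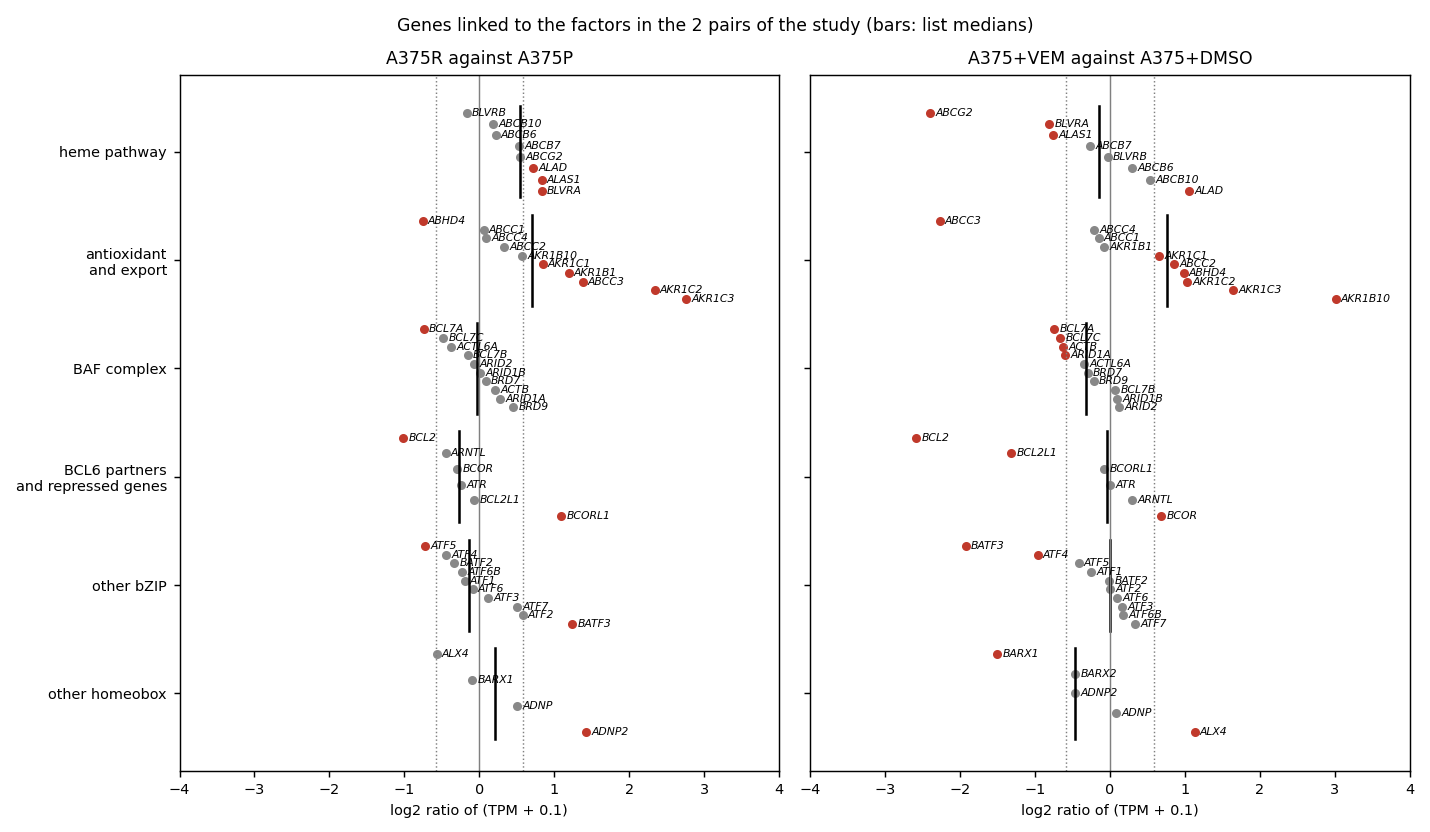
Log2 ratios of (TPM + 0.1) (horizontal axes) of the genes in 6 lists linked to the factors (vertical axis), in A375R against A375P and in A375+VEM against A375+DMSO. Points are genes, red where past 1.5-fold (dotted lines), and black bars are list medians. BCL2 lies furthest to the left of its list in both panels, and the median of the antioxidant and export list is at 0.71 and 0.76.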

How the data were processed

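RNA of 4 cultures of A375 cells was sequenced, with 1 library per condition, grouped by the sample labels. The authors deposited 1 table with, per gene and library, a count of reads without normalization and a TPM. The authors' TPM was the count times 1 constant per library divided by gene length. The submitters' processing notes name hg19 and the tools HISAT2, TopHat2, Bowtie2 and HISAT, and the counting program and use of strand are not given in the sources used here. The analysis covered the 2864 genes with values in an alphabetical stretch of gene names, and 1 incomplete row was left out. No other gene of the table overlapped a member.

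The 8 members, the gene lists and the motifs were chosen with earlier results of these data known. Genes named were the members, the genes of the lists and, for each member at 1 TPM or more, the 2 nearest profiles. Of the homeobox list, 1 gene is not reported here. Pairs of libraries were compared by the ratio of (TPM + 0.1) at 1.5-fold, among genes with at least 1 TPM in 1 of the 2, and no count model was used for want of replicates. Intervals at 95% were exact Poisson for levels and exact Clopper-Pearson for ratios of reads scaled by the library constants. Reads are not independent molecules, so they cover counting error only. Counts of 2864 genes were simulated for A375R against A375P with Poisson error only and 200 genes changed 3-fold. Of the changed genes 99.5% were called in the right direction, and 43 unchanged genes were called as well. Of the intervals of the changed genes, 96.5% held the true ratio. Variation between cultures was not simulated, so these values check the computation and do not measure how reliable the calls in the data are. Alternatives were other pseudocounts, filters, scaling, thresholds and a call by interval. Computation was in Python 3.11.15 with scipy 1.17.1, numpy 2.4.6, pandas 2.3.3 and matplotlib 3.10.9.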

Additional observations from a re-analysis of the deposited data

Results flagged for a closer look

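BACH1 and BNC1 moved in opposite directions in the 2 pairs of the study by more than counting error, which was not put to a test. As log2 ratios of (TPM + 0.1), A375R stood at 0.31 to A375P for BACH1, and A375+VEM at -0.49 to A375+DMSO. For BNC1 the same values were -0.24 and 0.39, all within 1.5-fold. The intervals of BNC1 came close to 1, at ratios of 0.72 to 0.99 and 1.05 to 1.66. Between the controls of the pairs, A375+DMSO stood at -1.30 to A375P for BNC1 and at -0.32 for BACH1.

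Past 1.5-fold in opposite directions, also untested, were 6 genes of the lists. The share of all genes that did so was not counted, so 6 is not set against a background. ALAS1 was at 0.83 and -0.76, BLVRA at 0.83 and -0.81, ABCC3 at 1.38 and -2.27, and BATF3 at 1.24 and -1.92. ABHD4 was at -0.76 and 0.98, and ASPRV1, a protease gene of keratinocytes, was at -1.82 and 2.03, from 36 reads in A375P to 8 in A375R and from 14 in A375+DMSO to 62 in A375+VEM. The pairs have different controls. With A375+DMSO as the control, A375R was at 0.66 for ALAS1 and ABCC3, past 1.5-fold. It was within 1.5-fold at 0.52 for BATF3, 0.21 for BLVRA and 0.05 for ABHD4. ASPRV1 was under 1 TPM in both of these libraries and was not compared.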

How the results depend on the processing

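No paired analysis was possible because each condition has 1 library, and for the same reason no library could be left out. The number of members past 1.5-fold stayed within 1.5 times under 28 of 35 alternatives. At a TPM of at least 5 it was 1 in A375R against A375P in place of 2, since BCL11A was not compared. In A375+VEM against A375+DMSO it was 2 in place of 1 without the filter on low values, which admitted BCL11B, and 2 with the median ratio scaled to 1, which took BACH1 past the threshold. In A375R against A375+DMSO it was 1 in place of 3 at a threshold of 2-fold and 1 where the whole 95% interval had to be past 1.5-fold, without BACH1 and BNC2. In A375+VEM against A375P it was 5 in place of 3 without the filter, which admitted BCL11A and BCL11B, and 1 at 2-fold.

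BCL6 kept its call in the 4 comparisons where it had one under each of these settings. No log2 ratio of a called member changed sign under the other pseudocounts or scaling. The log2 ratio of BCL11A in A375R against A375P was 0.67 with a pseudocount of 1, in place of 1.36. The median log2 ratio of all genes was 0.15 for A375+VEM with A375P as the control and 0.11 with A375+DMSO. BCL11B, with 2 to 16 reads, is limited by depth.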
